A study of Mus musculus with 7 samples.

Results

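Induced hepatic stem cells (iHepSCs), which were converted from mouse fibroblasts, were compared gene by gene with primary hepatocytes (pHep). The comparison took the 2 iHepSC arrays, made at passage 3 (P3, replicate 1) and passage 20 (P20, replicate 2), and the only pHep array, which together are 3 of the 7 Affymetrix mouse arrays of the series. It covered all 18193 genes that had a probe set with 1 gene symbol. The other 4 arrays, of mouse embryonic fibroblasts (MEF), supplied most of the measured spread and are given beside a result as the level of the starting cells. Of 886 genes placed in 38 lists of hepatocyte, immature, foregut and other programs, 796 were measured.

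All cells came from C57BL/6J mice, given as C57BL/6 in the labels. MEF were isolated from midgestation embryos without the head and internal organs. The iHepSCs were MEF infected with lentivirus carrying Oct4 and Hnf4a, both in an SFFV vector, then switched to HEP medium, a William's E medium with serum, N2, nicotinamide, dexamethasone, HGF and EGF, and picked as colonies that were expanded on collagen. Several clones were derived. The study carried iHepSC-C3 on for detailed work, while the array labels give no clone. The P3 and P20 arrays may come from 1 clone, and variation between clones was not tested. The pHep were taken from a 6-week-old male mouse by collagenase perfusion of the liver. According to the labels they were cultured in HEP medium, while the study's text calls them freshly isolated. Any value of pHep is that of 1 array, with no replicate of its own. Other hepatic stem cell samples were not analysed here.

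Hepatocytes are the parenchymal cells of the liver. They release most plasma proteins, detoxify drugs, make bile acids, dispose of ammonia as urea and hold the glucose and lipid supply of the body steady. They arise from hepatoblasts, fetal progenitors that also give bile duct cells, and hepatoblasts in turn come from the foregut endoderm, the sheet of epithelium that also forms the stomach, the pancreas and the lung. A hepatic stem cell in culture is therefore usually read against 3 sets of genes, those of the working hepatocyte, those of the immature or bile duct cell and those of the neighbouring gut organs.

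Levels are log2 values after RMA, in which a difference of 1 is 2-fold. Array medians lay between 6.28 and 6.33, and the 2 iHepSC arrays correlated at 0.996 across probe sets with each other and at 0.912 and 0.916 with pHep. Among the MEF arrays, replicate 1 stood apart, with correlations near 0.96 to the others, which reached 0.997 among themselves. It widens the error of genes that vary among MEF. The test was limma's, fitted to all 7 arrays, and genes with an adjusted p under 0.05 are called higher or lower. Since pHep adds no spread of its own, it was assumed to vary like the other groups. The replicates are not said to come from separate cultures, so p-values reflect no more than how far these arrays lie apart, which may be technical. In bulk RNA, fewer cells of a type and less RNA per cell cannot be told apart.

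The array labelled pHep was checked against 11 hepatocyte markers, of which 10 were higher than in MEF, against 14.8% of all genes. Alb, the main plasma protein, stood at 15.13 on the pHep array and at 5.35 to 5.89 on the MEF arrays. The exception was Cyp2e1, a cytochrome P450 of the zone around the central vein, with 5.11 in pHep and 5.22 to 5.52 in MEF. Serpina6, which encodes the cortisol carrier, was likewise at 4.43 in pHep and 4.30 to 4.68 in MEF, and Cyp8b1, a bile acid enzyme, at 5.43 and 5.51 to 5.77. At the same time the pHep array carried Afp, the fetal counterpart of albumin, at 12.44, and Bex1, an X-linked gene, at 14.28. Macrophage markers, Kupffer cell genes included, were higher in pHep than in MEF for 13 of 18, and the mean level of the list was 9.28 in pHep, 6.10 and 6.02 in iHepSCs and 6.38 to 7.31 in MEF. Of 6 defining Kupffer cell markers, 4 were higher in pHep than in MEF. Vsig4 was at 11.57 in pHep, C1qa at 11.08 and Csf1r at 10.6, the last with 9.0 to 9.9 in MEF. Adgre1 was at 7.69 in pHep and 7.1 to 7.5 in MEF, Cd5l at 5.97 and 5.1 to 5.5 and Clec4f at 6.08 and 6.46 to 6.75. Timd4, not a defining marker here, was at 4.50 in pHep, close to its MEF level. The pHep array thus held hepatocyte transcripts at very high levels beside transcripts of macrophage markers, Afp and Bex1. Which cells these other transcripts came from was not tested, nor was their part in the differences below.

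Of the 18193 genes, 1685 were higher in iHepSCs than in pHep (9.26%) and 1435 were lower (7.89%). The median difference of called genes was 1.29 for those higher and -1.74 for those lower in iHepSCs. A level near the bottom of the scale may be array background, so differences against such levels are given on the log2 scale and not as an exact fold. Differences of at least 16-fold were called in 157 genes higher (0.863%) and 225 lower in iHepSCs (1.24%). The median difference over all genes was 0.15. When each array was centred on the Gapdh control probe sets, which read 13.97 and 13.67 on the iHepSC arrays and 14.28 on the pHep array, this median moved to 0.61, with 1641 genes higher and 616 lower. Without MEF replicate 1 the counts rose to 4628 and 3144, and without iHepSC replicate 1 they fell to 909 and 878.

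**Figure D1:**
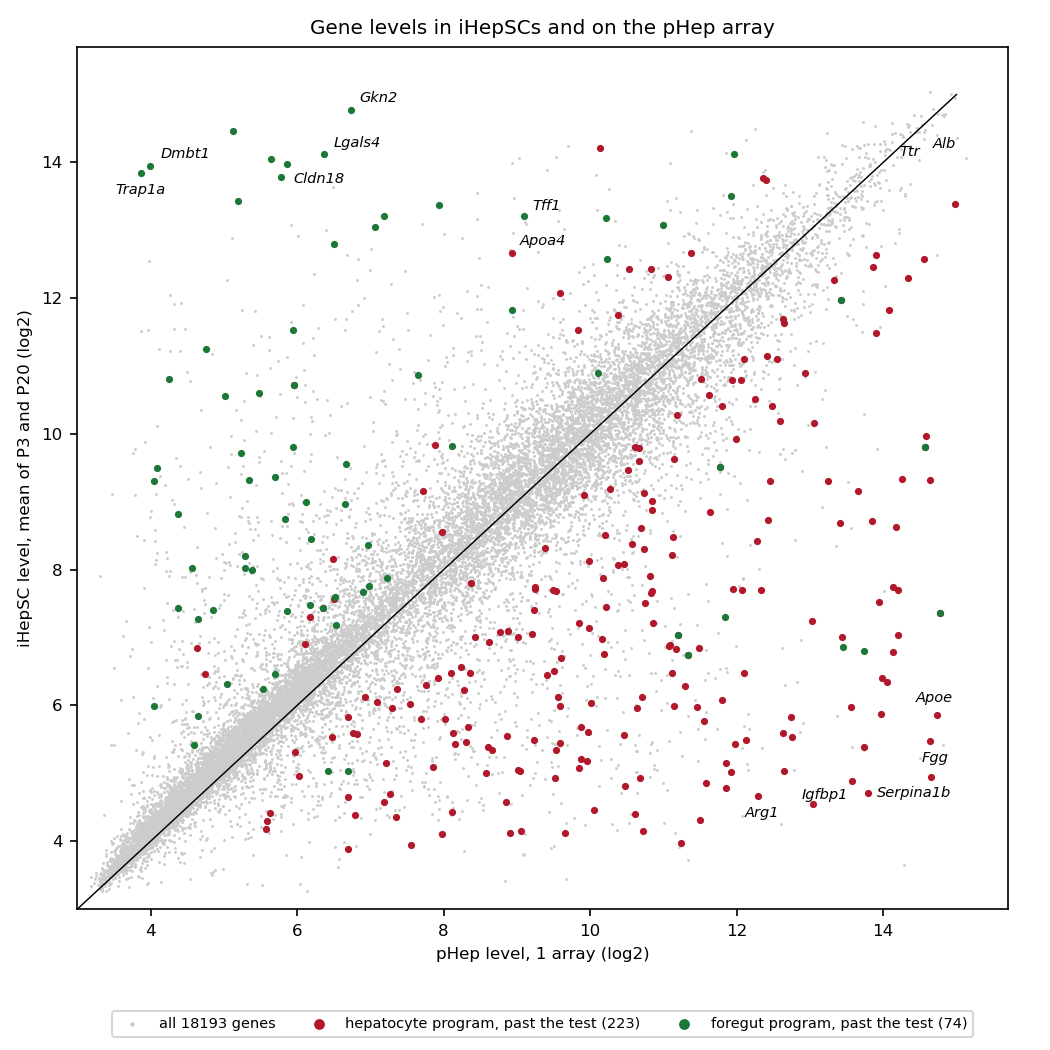
Level of each of 18193 genes on the pHep array (horizontal axis, log2) and the mean of the P3 and P20 iHepSC arrays (vertical axis, log2), with the line of equal levels. Red points are called genes of the hepatocyte program and green points called genes of the foregut program, with genes of both programs in green. Most red points lie below the line and most green points above it.

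The 3 programs went different ways. Of the 360 measured genes of the hepatocyte program, 201 were lower in iHepSCs (55.8%) and 22 were higher (6.11%), with a median difference of -1.33. The foregut program held the stomach, foregut and gut regulator, intestinal, pancreas, lung and yolk sac lists, so it reached beyond foregut organs. Of its 148 genes, 63 were higher (42.6%) and 11 lower (7.43%), with a median of 0.60. The immature program held the hepatoblast, fetal growth, bile duct, dividing cell and glycolysis lists. Its 108 genes divided evenly, with 16 higher and 16 lower (both 14.8%) and a median of 0.47. The medians of those lists were, in that order, -0.23, -0.45, 0.38, 1.27 and 0.44. Without MEF replicate 1 the immature program had 50 genes higher and 26 lower. At 16-fold or more, 77 hepatocyte genes were lower and 2 higher, and 24 foregut genes were higher and 7 lower. Set against MEF, 139 of the hepatocyte genes were higher in iHepSCs and 263 were higher in pHep, where the background over all genes was 18.2% and 14.8%. Of the foregut genes, 76 were higher than MEF in iHepSCs and 26 in pHep.

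**Figure D2:**
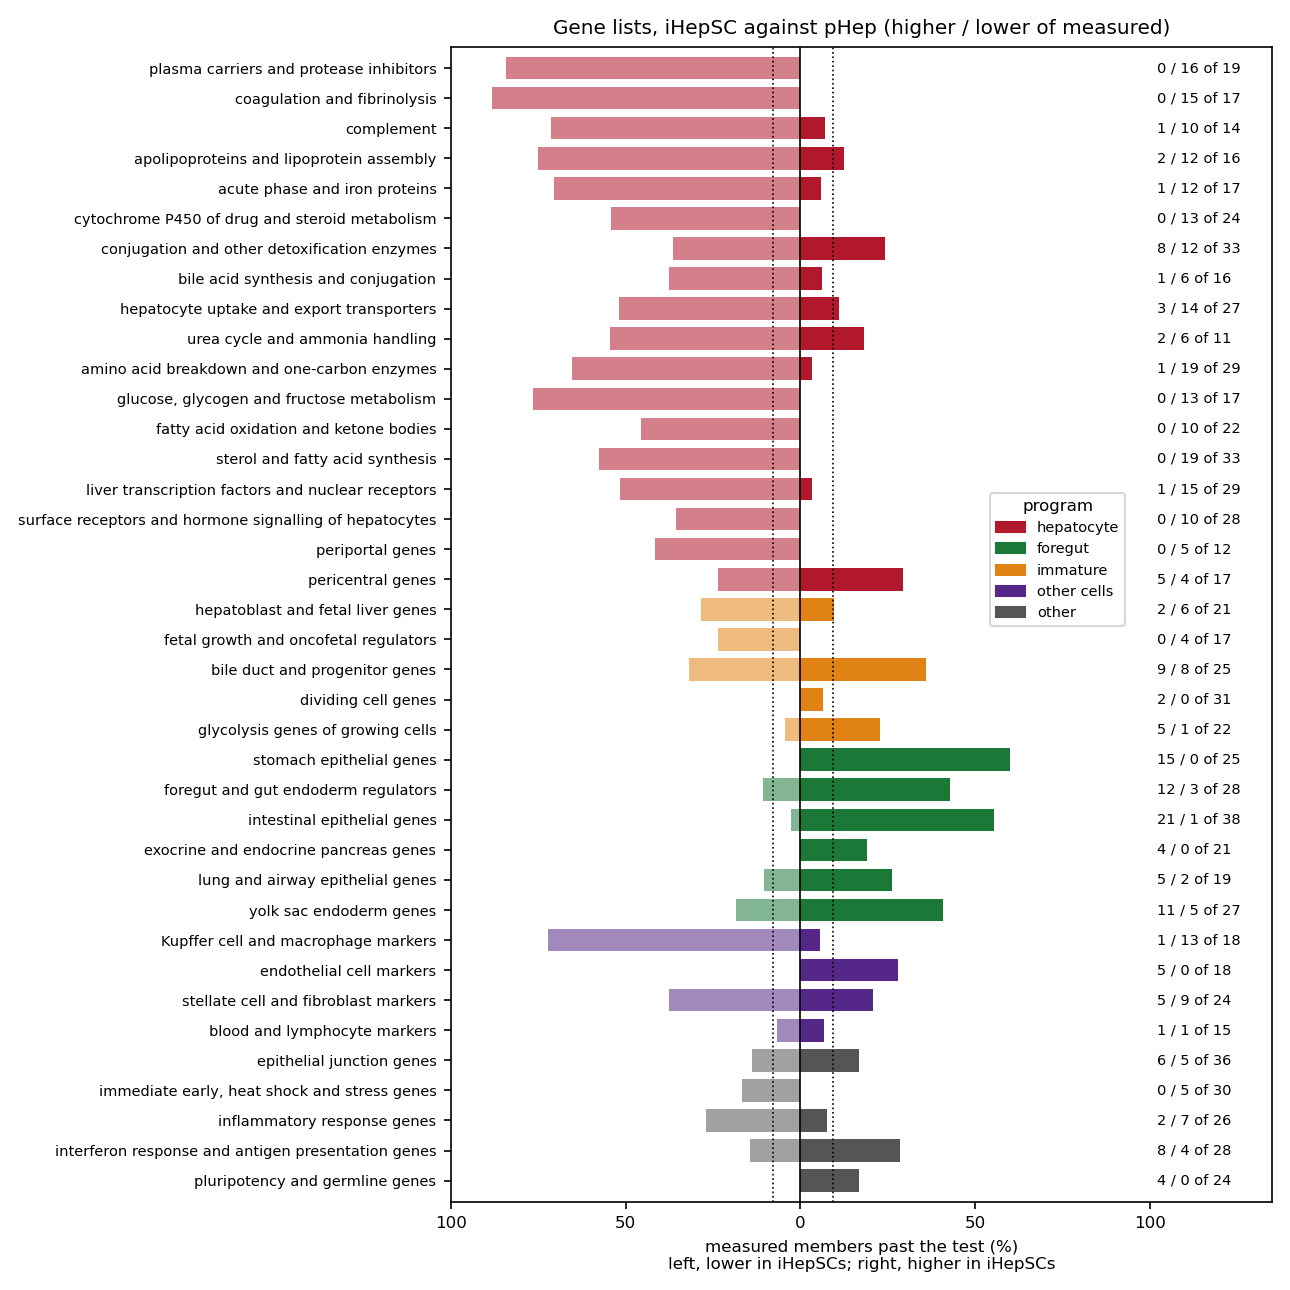
For each gene list, the percent of measured members called lower in iHepSCs (bars to the left) and higher in iHepSCs (bars to the right), with the counts at the right edge. Dotted lines mark the percent of all 18193 genes called in each direction, and the leftmost bars are those of coagulation, plasma carrier and glucose genes.

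Secreted plasma proteins held wide gaps. Of 19 plasma carriers and protease inhibitors, 16 were lower in iHepSCs and none was higher, with a median difference of -4.77. Serpina1b and Serpina1c encode forms of the elastase inhibitor alpha-1-antitrypsin. Serpina1b read 4.91 at P3, 4.99 at P20 and 14.65 in pHep, a difference of -9.70 ± 0.25 (± SE, limma adjusted p = 7.2e-06), and its iHepSC levels lay within the 4.79 to 5.37 of MEF. Serpina1c, which is outside the list, read 5.29 at P3, 5.53 at P20 and 14.82 in pHep, a difference of -9.41. The copies of this gene family are close in sequence, and their probe sets may share signal. Pzp, a broad protease inhibitor, read 4.71 at P3, 5.06 at P20 and 13.58 in pHep, and Itih3, a heavy chain of the inter-alpha-trypsin inhibitor, read 5.40 at P3, 5.37 at P20 and 13.74 in pHep. Vtn, the adhesive plasma protein vitronectin and also outside the list, read 5.24 at P3, 5.23 at P20 and 14.50 in pHep. In iHepSCs these genes were at fibroblast level in both passages, except that Itih3 was 0.53 above MEF, while in pHep they were near the top of the scale.

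Other carriers were partly present in iHepSCs. Ahsg, or fetuin A, read 8.17 at P3, 9.10 at P20 and 14.18 in pHep, with 5.33 to 5.89 in MEF, and Rbp4, which carries retinol, read 9.74 at P3, 9.87 at P20 and 14.58 in pHep, with 6.80 to 7.76 in MEF. Both were lower than in pHep, with differences of -5.55 ± 0.42 and -4.77 ± 0.37. Hpx, which binds haem, came closer at 12.75 at P3, 12.41 at P20 and 14.56 in pHep, and its difference of -1.99 ± 0.28 (adjusted p = 0.0051) was no longer called when the arrays were centred on Gapdh. Alb and Ttr, both abundant carriers, were not called. Alb read 13.74 at P3, 14.39 at P20 and 15.13 in pHep, a difference of -1.07 ± 0.32 with a 95% confidence interval of -1.85 to -0.28 and an adjusted p of 0.077. Of the leave-one-out fits, only that without MEF replicate 1 called it. Ttr, which carries thyroid hormone and retinol, read 14.36 at P3, 14.44 at P20 and 14.73 in pHep, a difference of -0.33 ± 0.18 (interval -0.77 to 0.11).

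The clotting system was the list most often lower in iHepSCs, in 15 of 17 genes, with a median of -5.66. Only 6 of the 17 were higher in iHepSCs than in MEF, against 16 in pHep. The chains of fibrinogen, the protein that forms the clot, are encoded by neighbouring genes. Fgg read 5.28 at P3, 5.66 at P20 and 14.64 in pHep, a difference of -9.17 ± 0.19 (adjusted p = 4.5e-06). Fgb read 7.46 at P3, 7.28 at P20 and 14.78 in pHep, a difference of -7.41 ± 0.22, and Fga read 7.00 at P3, 7.09 at P20 and 14.20 in pHep, a difference of -7.15 ± 0.25. All 3 chains were higher in iHepSCs than in MEF, by 2.91 for Fga, 2.54 for Fgb and 0.64 for Fgg. Plg, the precursor of the clot-dissolving enzyme plasmin, read 5.84 at P3, 5.91 at P20 and 13.98 in pHep. F2, or prothrombin, read 7.37 at P3, 8.13 at P20 and 14.13 in pHep. The clotting factor F9 read 4.51 at P3, 4.42 at P20 and 10.05 in pHep, and F12 read 5.96 at P3, 6.01 at P20 and 13.56 in pHep. These 7 genes were called in every leave-one-out fit, and Plg, F9 and F12 were not called between iHepSCs and MEF. F11, at 7.58 at P3, 7.05 at P20 and 6.91 in pHep, and Klkb1, at 4.59 at P3, 4.67 at P20 and 5.37 in pHep, were not called.

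Promoter sequence is shown for the fibrinogen genes, on the hepatocyte side, and the gastrokine genes, described further on, on the iHepSC side. The mucosal genes planned beside fibrinogen were Tff1, Tff2 and Tff3. Their promoters were absent from the reference used, and the gastrokine genes took their place. The 150 bases before the transcript start are shown from RefSeq (GRCm38.p6), 5′ to 3′ in the direction of transcription, for Fga (chr3:83026003-83026152, plus strand), Fgb (chr3:83049864-83050013, minus strand), Fgg (chr3:83007574-83007723, plus strand), Gkn1 (chr6:87350916-87351065, minus strand) and Gkn2 (chr6:87373215-87373364, plus strand). Capitals mark matches, on either strand, to 6 motifs. That of HNF1 was searched as GTTAATNAT, that of HNF4 as CAAAGTCCA and that of C/EBP as TTGCNNAA. The forkhead motif of FOXA proteins was searched as TGTTTAC, the motif of the GATA factors as AGATAA, and the core promoter element at which transcription complexes assemble as TATAAA, called the TATA box below.
Fga: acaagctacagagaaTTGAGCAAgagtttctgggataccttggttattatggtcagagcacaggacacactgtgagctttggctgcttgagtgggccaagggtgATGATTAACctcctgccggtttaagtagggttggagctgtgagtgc
Fgb: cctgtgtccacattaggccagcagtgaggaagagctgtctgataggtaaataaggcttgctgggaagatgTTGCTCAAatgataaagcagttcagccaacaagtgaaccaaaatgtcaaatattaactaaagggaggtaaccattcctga
Fgg: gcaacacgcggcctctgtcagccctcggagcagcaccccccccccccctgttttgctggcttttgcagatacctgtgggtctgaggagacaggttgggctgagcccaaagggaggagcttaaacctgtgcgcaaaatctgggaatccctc
Gkn1: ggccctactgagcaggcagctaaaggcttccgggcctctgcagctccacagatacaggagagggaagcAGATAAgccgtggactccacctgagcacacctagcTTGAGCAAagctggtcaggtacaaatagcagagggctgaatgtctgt
Gkn2: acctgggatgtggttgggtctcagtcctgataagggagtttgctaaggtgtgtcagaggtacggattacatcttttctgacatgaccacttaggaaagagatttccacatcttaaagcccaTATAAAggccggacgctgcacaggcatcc
Fga held a C/EBP and an HNF1 match, Fgb a C/EBP match and Fgg none of the 6. Gkn1 held a GATA and a C/EBP match, and Gkn2 a TATA box. An HNF1 match was present in 0.387% of 18109 promoter windows of the genes tested, in 2.94% of 204 windows of genes at least 16-fold higher in pHep and in 0.709% of 141 windows of genes at least 16-fold higher in iHepSCs. For C/EBP the shares were 4.74%, 11.3% and 10.6%, and for the TATA box 5.44%, 14.2% and 12.1%. For GATA they were 4.04%, 5.88% and 7.80%, for FOXA 1.38%, 2.45% and 1.42%, and for HNF4 0.293%, 1.47% and 0%. Several windows can belong to 1 gene and neighbouring genes can share part of a window. A match describes letters and is no test of binding.

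Lipoprotein genes were mixed. Of 16, 12 were lower in iHepSCs and 2 were higher, or 1 higher in each leave-one-out fit but that without MEF replicate 1. Apoe, the ligand by which remnant particles are taken up, read 5.73 at P3, 5.99 at P20 and 14.73 in pHep, a difference of -8.87 ± 0.25, and in iHepSCs it lay below the 8.69 to 9.21 of MEF. Apoh, a plasma protein that binds phospholipids, read 6.23 at P3, 6.59 at P20 and 13.99 in pHep, and Apoa2, the second protein of high-density lipoprotein, read 6.47 at P3, 6.49 at P20 and 12.10 in pHep. In contrast, the core proteins of both particle classes were high in iHepSCs. Apoa1, the main protein of high-density lipoprotein, read 15.03 at P3, 15.05 at P20 and 14.65 in pHep (difference 0.40 ± 0.17, interval -0.01 to 0.80), and Apob, the scaffold of low-density lipoprotein, read 14.06 at P3, 14.02 at P20 and 14.48 in pHep (interval -1.40 to 0.51). Neither was called. Apoa4, an apolipoprotein made in quantity by the small intestine, went the other way at 12.37 at P3, 12.95 at P20 and 8.93 in pHep, a difference of 3.73 ± 0.39 (adjusted p = 0.0014).

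In the complement list, 10 of 14 genes were lower and C9, a subunit of the pore-forming complex, was higher, at 12.72 at P3, 12.14 at P20 and 10.83 in pHep (1.61 ± 0.29). Cfi, the protease that inactivates C3b, read 6.90 at P3, 6.66 at P20 and 14.14 in pHep, and the lectin Mbl2 read 5.08 at P3, 4.78 at P20 and 9.52 in pHep. Among acute phase and iron genes, 12 of 17 were lower, with a median of -2.05. Crp, the pentraxin C-reactive protein, read 5.13 at P3, 4.94 at P20 and 12.65 in pHep, a difference of -7.62 ± 0.16. Orm2, an orosomucoid, read 4.97 at P3, 4.75 at P20 and 11.58 in pHep, and Hamp, the iron hormone hepcidin, read 5.83 at P3, 6.17 at P20 and 11.15 in pHep. Saa3, an amyloid gene that is also made outside the liver, was the member higher in iHepSCs, at 11.94 at P3, 12.22 at P20 and 9.59 in pHep (2.49 ± 0.24). Hp, the haemoglobin carrier haptoglobin, had the highest level in pHep of all called genes and was also high in iHepSCs, at 13.29 at P3, 13.48 at P20 and 14.99 in pHep. Its difference of -1.60 ± 0.35 was called with all arrays and in only 1 of the 6 leave-one-out fits, that without MEF replicate 1.

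Drug metabolism genes were counted by class of enzyme, and the difference between classes was not tested. Of 24 cytochrome P450 genes, 13 were lower in iHepSCs and none was higher, and 6 were higher in iHepSCs than in MEF against 18 in pHep. Cyp2j5 read 4.00 at P3, 3.95 at P20 and 11.24 in pHep, a difference of -7.27 ± 0.14. Cyp2d10 read 4.82 at P3, 5.21 at P20 and 11.93 in pHep, and Cyp3a11, which oxidises many drugs and steroids, read 4.42 at P3, 4.39 at P20 and 10.61 in pHep. Cyp1a2, an enzyme of the central zone, read 5.34 at P3, 5.34 at P20 and 9.54 in pHep. None of the 4 genes was called between iHepSCs and MEF. Members of the Cyp2c, Cyp2d and Cyp3a families are near-copies of each other, and a probe set may read more than 1 of them. Cyp2e1, low in pHep itself, read 5.27 at P3, 5.22 at P20 and 5.11 in pHep and was not called.

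The conjugating enzymes, which attach sugar, sulfate or glutathione to a drug, moved in both directions. Of 33, 12 were lower and 8 higher, with a median of -0.11 that was 0.35 when the arrays were centred on Gapdh. Against MEF, 22 were higher in iHepSCs and 24 in pHep. Gstt1, a glutathione transferase, read 5.97 at P3, 6.18 at P20 and 11.79 in pHep (-5.72 ± 0.25), and Nnmt, which methylates nicotinamide, read 5.83 at P3, 6.08 at P20 and 10.64 in pHep. In the opposite direction, Sult1c2, a sulfotransferase of the stomach, read 10.65 at P3, 10.78 at P20 and 5.96 in pHep (4.76 ± 0.14), and Gsta4, a glutathione transferase for lipid aldehydes, read 14.26 at P3, 14.16 at P20 and 10.14 in pHep (4.07 ± 0.22). Ugt2b38 read 6.66 at P3, 7.04 at P20 and 4.63 in pHep and Ugt2b35 read 12.32 at P3, 12.30 at P20 and 11.06 in pHep, both higher in iHepSCs, although glucuronosyl transferases of this family share much of their sequence.

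Of 16 bile acid genes, 6 were lower, or 11 without MEF replicate 1. Cyp7a1, the rate-limiting enzyme of bile acid synthesis, was low on all arrays, at 4.90 at P3, 5.01 at P20 and 6.02 in pHep (-1.07 ± 0.14), and the call was lost on centring to Gapdh. The activating and conjugating enzymes had wider gaps, with Slc27a2 at 5.22 at P3, 5.64 at P20 and 11.97 in pHep, Slc27a5 at 4.97 at P3, 5.14 at P20 and 9.01 in pHep and Baat at 6.46 at P3, 6.56 at P20 and 9.51 in pHep. Cyp27a1, which starts the alternative route in mitochondria, was higher in iHepSCs, at 11.35 at P3, 11.70 at P20 and 9.84 in pHep (1.69 ± 0.19). Among 27 transporters 14 were lower and 3 higher, or 5 higher without MEF replicate 1. The bile acid importer Slc10a1 read 5.09 at P3, 4.97 at P20 and 9.04 in pHep, the bile salt export pump Abcb11 read 5.05 at P3, 5.15 at P20 and 7.86 in pHep, and Abcc2, which exports conjugates into bile, read 4.95 at P3, 4.92 at P20 and 10.68 in pHep. The water channel Aqp8, at 8.34 at P3, 7.97 at P20 and 6.49 in pHep, and the drug exporter Abcb1a, at 10.07 at P3, 9.59 at P20 and 7.89 in pHep, were higher in iHepSCs.

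Of 11 genes of the urea cycle and ammonia handling, 6 were lower and 2 higher, and the lower ones included the enzymes of the first and the last step of the cycle. Cps1, which fixes ammonia, read 5.67 at P3, 5.98 at P20 and 12.74 in pHep, a difference of -6.91 ± 0.26. Arg1, the arginase that releases urea, read 4.93 at P3, 4.40 at P20 and 12.28 in pHep, a difference of -7.62 ± 0.33 (adjusted p = 3.7e-05), and Nags, which makes the activator of Cps1, read 5.56 at P3, 5.43 at P20 and 9.24 in pHep. Arg1 and Nags were not called between iHepSCs and MEF, and Cps1 was 0.71 above MEF. Glul, or glutamine synthetase, which disposes of ammonia without the cycle, was higher in iHepSCs at 13.65 at P3, 13.90 at P20 and 12.35 in pHep (1.42 ± 0.15), as was Oat at 11.83 at P3, 11.67 at P20 and 10.39 in pHep. Amino acid breakdown was lower in 19 of 29 genes and higher in Got1, an aspartate transaminase, at 12.34 at P3, 12.51 at P20 and 10.53 in pHep. In the methionine cycle, Bhmt read 5.53 at P3, 5.55 at P20 and 12.75 in pHep, Mat1a read 4.36 at P3, 4.28 at P20 and 11.50 in pHep and Gnmt read 5.98 at P3, 6.09 at P20 and 10.02 in pHep. Tat, the tyrosine transaminase that appears late in liver development, read 6.16 at P3, 6.43 at P20 and 11.30 in pHep, a difference of -5.01 ± 0.24, and was within the MEF range of 6.06 to 6.60 in iHepSCs.

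Glucose and glycogen genes were lower in 13 of 17 and higher in none. Igfbp1, an insulin-regulated binding protein of growth factors, read 4.82 at P3, 4.60 at P20 and 13.80 in pHep, a difference of -9.09 ± 0.18. Pygl, which breaks down liver glycogen, read 4.76 at P3, 4.80 at P20 and 11.86 in pHep, and Slc2a2, the liver glucose transporter, read 7.28 at P3, 7.21 at P20 and 13.03 in pHep. G6pc, the last enzyme of glucose release, read 5.31 at P3, 5.59 at P20 and 9.59 in pHep. Pck1, the first committed enzyme of gluconeogenesis, read 3.98 at P3, 3.90 at P20 and 7.56 in pHep on the probe set used, while its other 2 probe sets differed by -0.28 and 0.29. Of these 5 genes, Slc2a2 and G6pc were higher in iHepSCs than in MEF, by 3.10 and 0.83.

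Genes of fat oxidation and of sterol and fat synthesis showed smaller gaps. Fatty acid oxidation was lower in 10 of 22, or 6 with either iHepSC array left out, with a median of -0.55, and none was higher. Acot1, a thioesterase, read 4.96 at P3, 5.36 at P20 and 11.85 in pHep, Acsm1, an acyl-CoA ligase, read 4.84 at P3, 5.19 at P20 and 8.58 in pHep and Fabp1, the liver fatty acid binding protein, read 8.58 at P3, 8.16 at P20 and 10.57 in pHep. Ppara, the nuclear receptor that drives this pathway, read 7.04 at P3, 7.39 at P20 and 9.84 in pHep. Sterol and fatty acid synthesis was lower in 19 of 33, with a median of -1.01, and the count was 12 without iHepSC replicate 2 and 6 on centring to Gapdh. Its widest gap was that of Dhcr7, the last enzyme of cholesterol synthesis, at 7.36 at P3, 7.66 at P20 and 10.75 in pHep (-3.24 ± 0.20). Against MEF, 15 of its genes were lower in iHepSCs (13.4% of all genes) and 2 in pHep (15.5% of all genes), where 13 were higher.

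**Figure D3:**
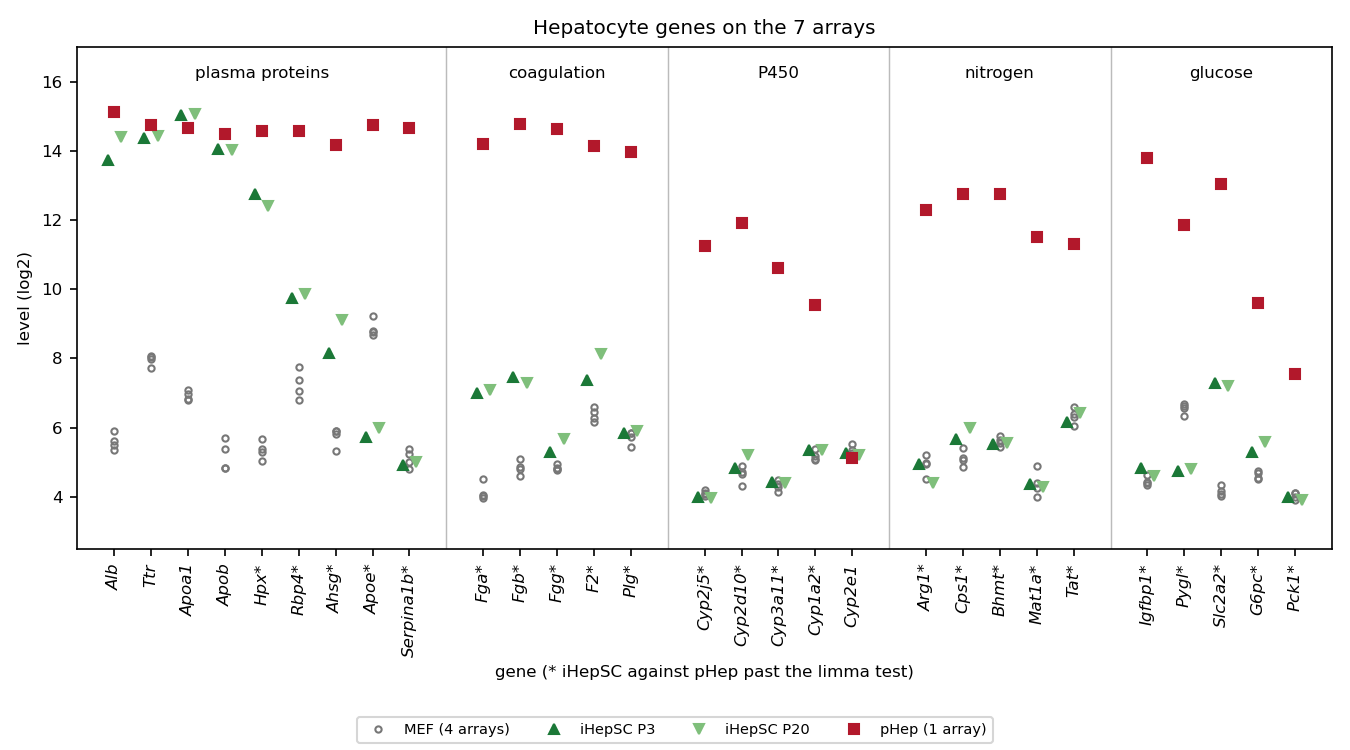
Level (log2) of hepatocyte genes on the 4 MEF arrays (open circles), the P3 and P20 iHepSC arrays (triangles) and the pHep array (squares), with an asterisk after genes called between iHepSC and pHep. Alb, Ttr, Apoa1 and Apob of iHepSCs lie near the pHep square, while those of Serpina1b, Fgg, Cyp2j5, Arg1, Bhmt and Igfbp1 lie among the MEF circles or just above them.

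Liver transcription factors were often lower in iHepSCs. Of 29 factors and nuclear receptors, 15 were lower than in pHep and 1 was higher, with a median of -1.44, and 13 were higher than in MEF against 21 in pHep. Hnf4a, the nuclear receptor that was also delivered by the virus, read 12.07 at P3, 11.88 at P20 and 13.42 in pHep, with 7.39 to 7.51 in MEF. Its difference of -1.44 ± 0.14 (limma adjusted p = 0.0012) was lost on centring to Gapdh. Transcripts of the virus and of the genome were not told apart here. By qPCR specific for the transgenes, the study reported those of Oct4 and Hnf4a as silenced at P3 and P20. Pou5f1, which encodes Oct4, read 5.04 at P3, 5.20 at P20 and 5.05 in pHep, inside the 4.99 to 5.26 of MEF. Foxa2, a pioneer factor of endoderm, was high in both, at 12.21 at P3, 12.22 at P20 and 11.32 in pHep, and was not called (interval -0.15 to 1.94). Its relatives were lower in iHepSCs than in pHep and above MEF. Foxa1 read 6.92 at P3, 7.15 at P20 and 11.20 in pHep, a difference of -4.17 ± 0.29, and Foxa3 read 6.51 at P3, 6.99 at P20 and 11.34 in pHep, a difference of -4.59 ± 0.34.

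Onecut1, which hepatoblasts use to set hepatocyte and duct fate, read 6.39 at P3, 5.84 at P20 and 10.71 in pHep, a difference of -4.59 ± 0.42. Hhex, a homeobox factor of the liver bud, read 9.33 at P3, 8.98 at P20 and 13.65 in pHep, with 5.76 to 6.39 in MEF, so it was raised in iHepSCs and still below pHep (-4.50 ± 0.30). Cebpa, the factor of mature metabolic genes, read 8.35 at P3, 8.25 at P20 and 10.73 in pHep and the bile acid receptor Nr1h4 read 7.51 at P3, 7.79 at P20 and 10.83 in pHep. Mlxipl, the glucose sensor ChREBP, read 6.09 at P3, 6.14 at P20 and 9.56 in pHep. All were called in every leave-one-out fit. Gata4, an endoderm factor, was the member higher in iHepSCs, at 7.53 at P3, 7.33 at P20 and 6.36 in pHep (1.07 ± 0.21), a call lost with either iHepSC array left out. Without MEF replicate 1, 4 factors were higher.

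Of 28 surface receptors and hormone signalling genes, 10 were lower and none higher, with 20 lower without MEF replicate 1. Asgr1, a chain of the asialoglycoprotein receptor of hepatocytes, read 4.58 at P3, 4.59 at P20 and 8.85 in pHep (-4.27 ± 0.21). Gjb2, the gap junction protein connexin 26, read 5.32 at P3, 5.67 at P20 and 12.13 in pHep, and Gcgr, the glucagon receptor, read 7.02 at P3, 7.00 at P20 and 9.01 in pHep. Egfr, the receptor for the EGF of the medium, read 8.28 at P3, 8.56 at P20 and 12.27 in pHep on the probe set used, and 6 of its 7 probe sets were lower, 4 of them by at least 1.83. By lobular zone, 5 of 12 periportal genes were lower (8 without MEF replicate 1) and none was higher, while 4 of 17 pericentral genes were lower (2 on centring to Gapdh) and 5 were higher. Apof, a lipid transfer inhibitor of the periportal list, read 4.70 at P3, 4.40 at P20 and 13.04 in pHep. The pericentral genes higher in iHepSCs included Glul, Oat and Cyp27a1, given above, and Lhpp at 7.65 at P3, 7.48 at P20 and 6.50 in pHep. Whether the 2 zones differ was not tested.

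Genes of the hepatoblast and fetal liver were not higher in iHepSCs as a list. Of 21, 2 were higher and 6 lower, with a median of -0.23 that was 0.23 on centring to Gapdh. Afp read 10.45 at P3, 10.52 at P20 and 12.44 in pHep, with 3.89 to 5.44 in MEF. Its difference of -1.95 ± 0.58 (interval -3.37 to -0.53) was not called, and 3 of its 5 probe sets were lower, by 1.72 to 1.95, while the other 2 differed by 0.02 and 0.38. Peg3, an imprinted gene, read 5.04 at P3, 6.18 at P20 and 12.87 in pHep, a difference of -7.26 ± 0.43, and 3 of its 5 probe sets were lower. Prom1, the surface marker CD133, read 5.21 at P3, 5.03 at P20 and 10.87 in pHep, a difference of -5.74 ± 0.59. Sox9, a factor of duct and progenitor cells, read 6.38 at P3, 6.06 at P20 and 10.90 in pHep, a difference of -4.68 ± 0.29, and was below the 7.09 to 7.78 of MEF. In these 3 genes the pHep array was the highest of the 7 arrays. Igf2, the fetal growth factor, read 7.10 at P3, 7.64 at P20 and 9.42 in pHep (1 of its 2 probe sets was lower), and all 3 arrays were below the 13.25 to 13.50 of MEF. Anpep read 5.23 at P3, 5.31 at P20 and 6.24 in pHep, a difference of -0.97 ± 0.18 whose call was lost with either iHepSC array left out.

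The 2 members higher in iHepSCs were epithelial. Krt19, a keratin of bile ducts and hepatoblasts, read 14.43 at P3, 14.07 at P20 and 9.70 in pHep, with 7.78 to 9.67 in MEF. Its difference of 4.55 ± 0.78 (adjusted p = 0.011) was no longer called with either iHepSC array left out. Epcam, an adhesion protein of progenitors, read 8.04 at P3, 8.14 at P20 and 7.34 in pHep, with 8.16 to 8.32 in MEF. Its other probe set read 9.90 at P3 and 10.01 at P20 against 6.11 in pHep and 5.19 to 5.65 in MEF. Epcam was called on the first, and its call was lost without iHepSC replicate 2. Afp and the 12 members that follow were not called. Cdh1, or E-cadherin, read 12.78 at P3, 12.83 at P20 and 12.54 in pHep, Krt8 read 14.35 at P3, 14.17 at P20 and 13.73 in pHep and Krt18 read 14.22 at P3, 13.93 at P20 and 14.24 in pHep, all far above MEF in both kinds of cell. Dlk1 read 5.98 at P3, 6.56 at P20 and 6.18 in pHep, Gpc3 read 6.51 at P3, 6.65 at P20 and 6.55 in pHep and Mest read 5.81 at P3, 5.49 at P20 and 6.10 in pHep, all below the MEF means. Cd24a read 13.87 at P3, 13.85 at P20 and 13.95 in pHep (2 of its 3 probe sets lower), Cpe read 13.59 at P3, 13.82 at P20 and 13.94 in pHep (1 of 2 lower) and Spink1, a trypsin inhibitor, read 9.51 at P3, 10.54 at P20 and 9.11 in pHep. The developmental factors Sox4 and Sox11 read 12.81 and 12.83 against 14.17 and 6.56 and 7.15 against 7.75 at P3 and P20 against pHep, with 6 of 8 and 3 of 6 probe sets lower, and Aldh1a3, which makes retinoic acid, read 5.09 and 5.19 against 4.84.

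Among 17 fetal growth and oncofetal regulators none was higher and 4 were lower, or 8 without MEF replicate 1. Grb10, an imprinted adaptor that restrains growth, read 4.73 at P3, 5.53 at P20 and 10.39 in pHep on the probe set used, and its other 2 probe sets differed by 0.40 and -0.52. Zbtb20, a repressor of Afp, read 9.57 at P3, 9.69 at P20 and 12.66 in pHep, a difference of -3.03 ± 0.31. The RNA-binding proteins of early embryos Lin28a and Lin28b were low on all 3 arrays, at 4.31 and 4.28 against 4.04 and 3.34 and 3.46 against 3.33, and 1 of the 2 probe sets of Lin28a was higher.

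Bile duct genes moved in both directions. Of 25, 9 were higher in iHepSCs (36%) and 8 lower (32%). Aqp1, a water channel, read 8.79 at P3, 10.61 at P20 and 5.10 in pHep (4.60 ± 0.65), Muc1, a membrane mucin, read 9.88 at P3, 9.73 at P20 and 5.94 in pHep (3.86 ± 0.20) and Tspan8, a tetraspanin, read 12.11 at P3, 12.09 at P20 and 8.32 in pHep (3.78 ± 0.25). Ehf, an epithelial ETS factor, read 9.75 at P3, 9.67 at P20 and 5.24 in pHep, and Krt23, a keratin, read 7.83 at P3, 7.53 at P20 and 5.47 in pHep. Krt19 and Epcam, above, Anxa2, at 14.24 at P3, 13.91 at P20 and 13.11 in pHep, and Cftr, at 5.91 at P3, 5.16 at P20 and 3.99 in pHep, completed the group. The call of Anxa2 was lost without iHepSC replicate 1, and Cftr was called in 2 of the 6 leave-one-out fits, those without MEF replicate 1 or iHepSC replicate 2. Of this group Aqp1 differed most between passages. The lower group held Prom1, Sox9, Onecut2 at 9.49 at P3, 9.54 at P20 and 11.77 in pHep, Pkhd1, the gene of the ciliary protein fibrocystin, at 6.59 at P3, 7.45 at P20 and 10.11 in pHep, Cldn4 at 6.57 at P3, 6.47 at P20 and 8.79 in pHep, Cldn6 at 5.89 at P3, 6.08 at P20 and 7.79 in pHep, Bicc1 at 12.12 at P3, 12.09 at P20 and 13.72 in pHep and the bile acid carrier Slc10a2 at 3.55 at P3, 3.52 at P20 and 4.82 in pHep. Of the 8 members not called, Krt7 had the largest difference, 2.30 ± 0.90, at 13.43 at P3, 13.52 at P20 and 11.17 in pHep. The others were Anxa3 (14.25 and 14.24 against 13.49), Cd24a, Cldn7 (5.76 and 5.78 against 6.45), Lgr5 (6.14 and 6.11 against 5.74), Sctr (6.57 and 6.59 against 6.26), Slc4a2 (9.92 and 10.12 against 10.10) and Ttyh1 (6.77 and 6.58 against 6.06).

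**Figure D4:**
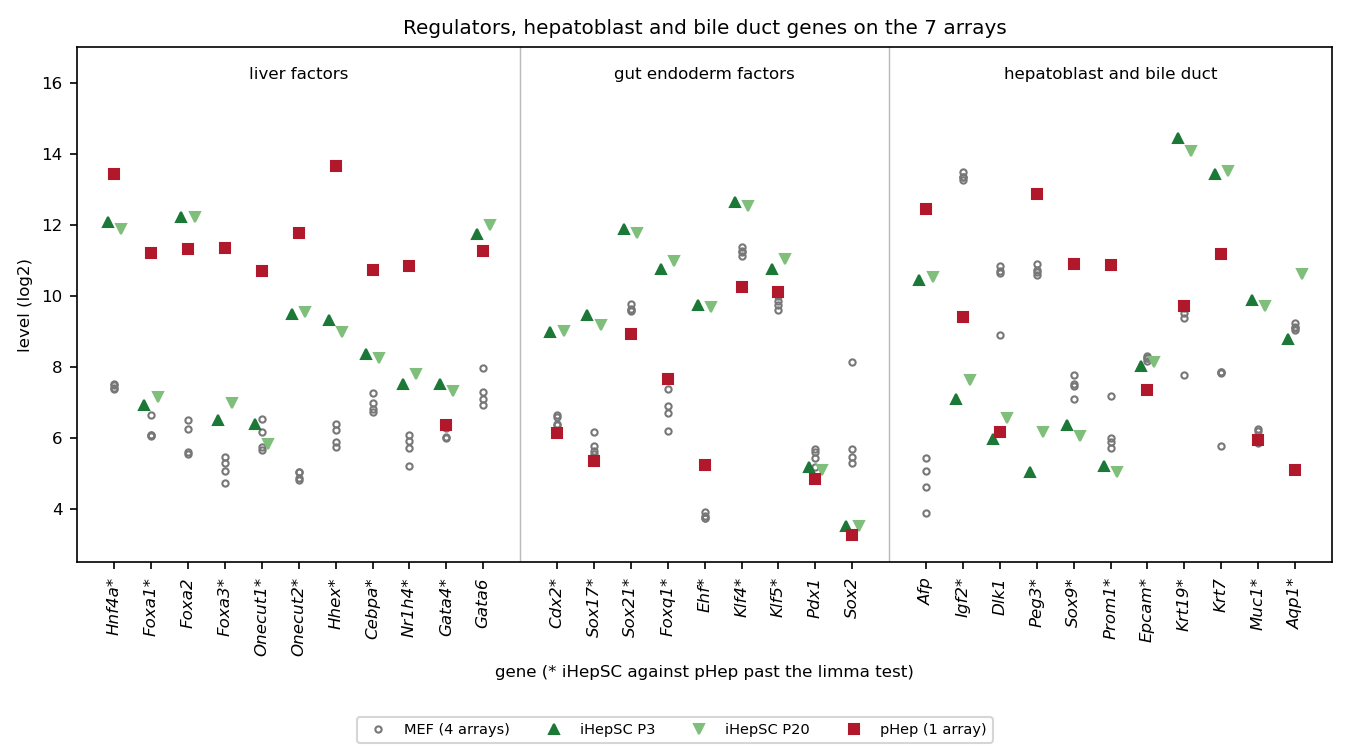
Level (log2) of liver factors, gut endoderm factors, hepatoblast and bile duct genes on the 4 MEF arrays (open circles), the P3 and P20 iHepSC arrays (triangles) and the pHep array (squares), with an asterisk after genes called between iHepSC and pHep. Foxa1, Foxa3, Onecut1, Sox9 and Prom1 are highest on the pHep array, and Cdx2, Sox17, Ehf and Muc1 on the iHepSC arrays.

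Few dividing cell genes passed the test. Of 31, 2 were called higher and none lower, with a median difference of 1.27 that was 1.63 at P3 and 0.88 at P20. Without MEF replicate 1, 25 were called higher. The called genes were Ccnd1, the G1 cyclin, at 13.58 at P3, 13.28 at P20 and 11.05 in pHep (2.38 ± 0.18), and E2f1 at 8.40 at P3, 8.25 at P20 and 7.65 in pHep, which of the leave-one-out fits was called only without MEF replicate 1. Mki67, the proliferation marker, read 10.07 at P3, 9.19 at P20 and 8.78 in pHep, a difference of 0.85 ± 1.46 (interval -2.71 to 4.41). Among 22 glycolysis genes 5 were higher and 1 lower, or 11 higher without MEF replicate 1. Slc2a3, a high-affinity glucose transporter, read 11.03 at P3, 10.70 at P20 and 5.45 in pHep (5.41 ± 0.82), Hk2, the hexokinase of growing cells, read 11.40 at P3, 11.02 at P20 and 8.33 in pHep (2.87 ± 0.19), and Pkm, the pyruvate kinase gene used outside the adult hepatocyte, read 13.08 at P3, 12.83 at P20 and 11.33 in pHep. Pfkp read 7.33 at P3, 7.59 at P20 and 10.06 in pHep and was lower.

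The stomach list had the highest share of members raised in iHepSCs. Of 25 genes 15 were higher (60%) and none lower, with a median of 1.54. Against MEF, 15 were higher in iHepSCs and 1 in pHep. Gkn2 and Gkn1 encode gastrokines, secreted by the surface cells of the stomach, and their promoters are shown above. Gkn2 had the highest iHepSC level of all called genes, at 14.83 at P3, 14.71 at P20 and 6.74 in pHep, a difference of 8.03 ± 0.20 (adjusted p = 6.1e-06), and Gkn1 read 14.14 at P3, 13.82 at P20 and 5.86 in pHep, a difference of 8.12 ± 0.26. Cym, chymosin, the milk-clotting protease of the young stomach, read 13.01 at P3, 13.84 at P20 and 5.19 in pHep, a difference of 8.23 ± 0.35. Cldn18, a tight junction claudin of stomach and lung, read 13.80 at P3, 13.79 at P20 and 5.78 in pHep, a difference of 8.01 ± 0.19. The 4 genes were near the top of the scale in both passages and close to MEF level in pHep.

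Further members with a gap of over 4 were Anxa10, an annexin of gastric epithelium, at 11.28 at P3, 10.33 at P20 and 4.25 in pHep, Ctse, the intracellular protease cathepsin E, at 12.72 at P3, 12.88 at P20 and 6.51 in pHep, and Psca, a surface antigen, at 11.08 at P3, 11.97 at P20 and 5.94 in pHep. Lipf, gastric lipase, read 9.10 at P3, 8.54 at P20 and 4.38 in pHep, and Tff1, a peptide that protects the gastric mucosa, read 13.10 at P3, 13.31 at P20 and 9.10 in pHep, where MEF already read 9.73 to 9.93. Sult1c2 and Muc1 were given above. Vsig1, a junction protein of the gastric epithelium, read 8.26 at P3, 7.79 at P20 and 4.56 in pHep (3.46 ± 0.26). Smaller differences were called for Aqp5 at 7.47 at P3, 7.32 at P20 and 5.86 in pHep, Capn9 at 6.59 at P3, 6.05 at P20 and 5.04 in pHep and Gkn3 at 7.71 at P3, 7.62 at P20 and 6.89 in pHep, of which Aqp5 lost its call without iHepSC replicate 1, and Gkn3 was called in 2 of the 6 leave-one-out fits, those without MEF replicate 1 or 4. The other members of the list were not called. The proton pump chains Atp4a and Atp4b read 6.40 and 6.38 against 6.24 and 7.10 and 7.04 against 6.81, the intrinsic factor gene Cblif read 4.56 and 4.56 against 4.56, and pepsinogen Pgc read 5.84 and 5.84 against 5.44. The mucin Muc5ac read 6.97 and 7.20 against 6.61, Tff2 read 6.51 and 6.62 against 6.39, gastrin, Gast, read 5.98 and 5.78 against 5.46, the stomach regulator Barx1 read 5.93 and 6.07 against 5.76, Sstr1 read 4.60 and 4.84 against 4.42 and Capn8 read 5.69 and 5.86 against 5.45. None of these 10 genes was called.

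Intestinal genes rose in 21 of 38 members (55.3%), with 1 lower and a median of 1.35. Dmbt1, a scavenger receptor of mucosal surfaces, read 13.86 at P3, 14.02 at P20 and 4.00 in pHep, a difference of 9.95 ± 0.17, and 2210407C18Rik, a gene of gut epithelium, read 14.50 at P3, 14.42 at P20 and 5.12 in pHep, a difference of 9.34 ± 0.16. Lgals4, a lectin of the intestinal brush border, read 14.10 at P3, 14.16 at P20 and 6.36 in pHep, Lgals2, a related lectin, read 13.32 at P3, 12.77 at P20 and 7.06 in pHep and Anxa13 read 13.36 at P3, 13.38 at P20 and 7.94 in pHep. Pigr, which carries antibodies across epithelium, read 10.14 at P3, 10.96 at P20 and 5.02 in pHep, Fabp2, the intestinal fatty acid binding protein, read 9.22 at P3, 9.76 at P20 and 4.09 in pHep and Clca1, a goblet cell product, read 9.01 at P3, 9.60 at P20 and 4.05 in pHep. Alpi, intestinal alkaline phosphatase, read 9.48 at P3, 9.26 at P20 and 5.69 in pHep, and Mep1b, a brush border protease, read 7.37 at P3, 7.50 at P20 and 4.37 in pHep. The list was not raised throughout. The goblet mucin Muc2 was at 6.18 and 6.09 against 5.98, lactase, Lct, at 4.57 and 4.51 against 4.54 and the crypt marker Olfm4 at 3.67 and 3.63 against 3.63, and the glucose carrier Slc5a1 was lower in iHepSCs, at 5.01 at P3, 5.06 at P20 and 6.43 in pHep, a call lost on centring to Gapdh. Vil1, or villin, was high in both at 10.09 at P3, 10.35 at P20 and 10.03 in pHep.

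Regulators of foregut and gut were higher in 12 of 28 and lower in 3, which were Foxa1, Foxa3 and Onecut2. Cdx2, the homeobox factor of the intestine, read 8.97 at P3, 9.02 at P20 and 6.13 in pHep (2.87 ± 0.16), with 6.37 to 6.64 in MEF. Sox17, a factor of early endoderm, read 9.47 at P3, 9.17 at P20 and 5.34 in pHep (3.98 ± 0.28), Foxq1, a gastric forkhead factor, read 10.75 at P3, 10.98 at P20 and 7.66 in pHep (3.21 ± 0.45) and Sox21 read 11.87 at P3, 11.77 at P20 and 8.93 in pHep (2.89 ± 0.14). Ihh, a hedgehog ligand of gut epithelium, read 7.80 at P3, 8.20 at P20 and 5.38 in pHep, and Klf4, a factor of differentiated epithelia, read 12.63 at P3, 12.54 at P20 and 10.24 in pHep. Ehf was given above. Factors of other foregut organs stayed near background, with Pdx1, of pancreas and duodenum, at 5.19 and 5.09 against 4.85, Nkx2-1, of lung and thyroid, at 5.63 and 5.48 against 5.45, and Sox2, of the anterior foregut, at 3.54 and 3.52 against 3.26. Gata6, a further endoderm factor, was high in both, at 11.73 at P3, 11.98 at P20 and 11.25 in pHep (2 of its 3 probe sets higher), and was not called.

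**Figure D5:**
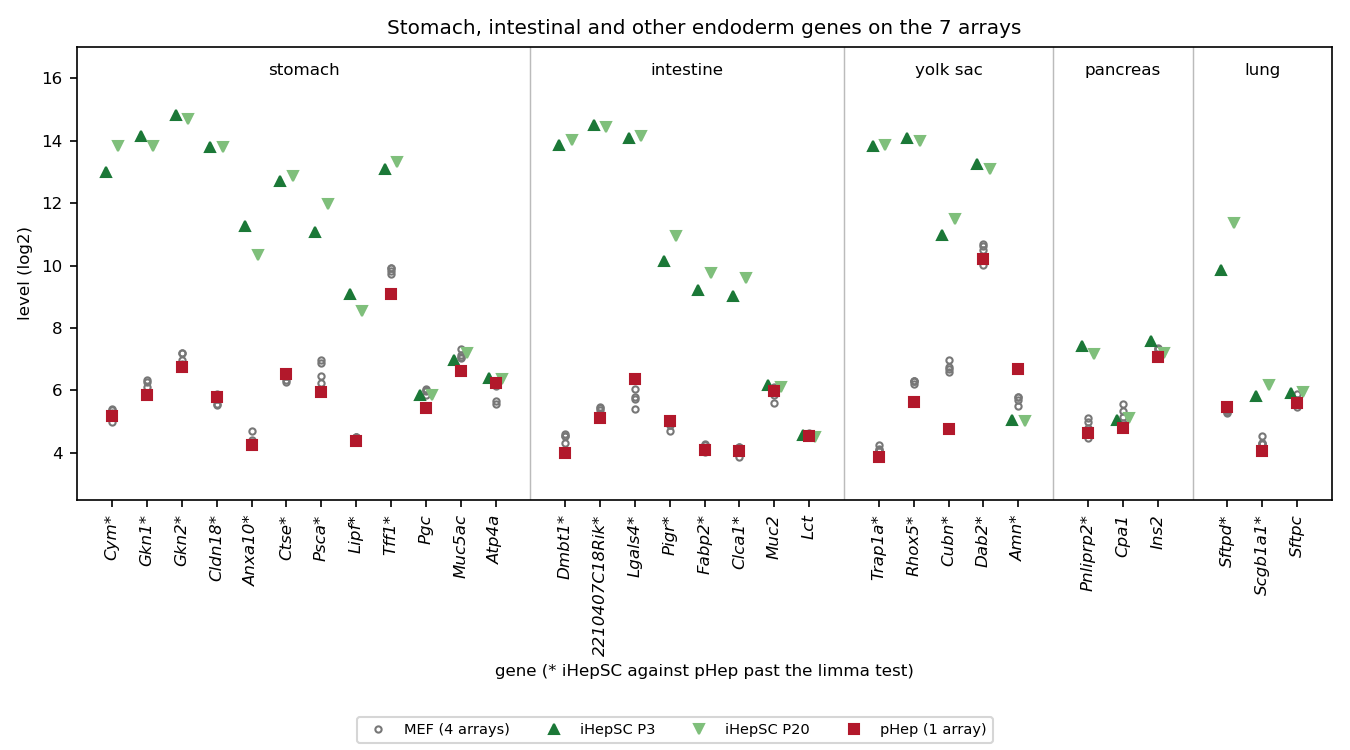
Level (log2) of stomach, intestinal, yolk sac, pancreas and lung genes on the 4 MEF arrays (open circles), the P3 and P20 iHepSC arrays (triangles) and the pHep array (squares), with an asterisk after genes called between iHepSC and pHep. Gkn1, Gkn2, Cldn18, Dmbt1, Lgals4, Trap1a and Rhox5 of iHepSCs lie between 13.79 and 14.83, far above pHep and MEF, and the symbols of Atp4a, Pgc, Muc2, Cpa1 and Sftpc lie close together at the bottom of the plot.

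Pancreatic genes were called higher in 4 of 21, or 8 without MEF replicate 1 and 1 without iHepSC replicate 1, and the largest difference was that of the lipase-related Pnliprp2, at 7.41 at P3, 7.15 at P20 and 4.64 in pHep (2.64 ± 0.28). Insulin, glucagon and the acinar carboxypeptidase were not raised, with Ins2 at 7.58 and 7.21 against 7.06, Gcg at 3.90 and 3.93 against 3.85 and Cpa1 at 5.04 and 5.12 against 4.78. In the lung and airway list 5 of 19 were higher and 2 lower, or 2 higher without iHepSC replicate 1 and 3 without MEF replicate 2. Sftpd, surfactant protein D, a collectin found on many mucosal surfaces, read 9.84 at P3, 11.36 at P20 and 5.48 in pHep (5.12 ± 0.55), and Scgb1a1, the club cell secretoglobin, read 5.83 at P3, 6.17 at P20 and 4.05 in pHep (1.95 ± 0.19). Sftpc, of alveolar type II cells, was at 5.93 and 5.96 against 5.61. The lower members were the lysozymes Lyz1 and Lyz2, at 6.96 at P3, 6.65 at P20 and 13.74 in pHep and 6.98 at P3, 6.73 at P20 and 13.45 in pHep, which macrophages also make.

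The yolk sac is an extraembryonic endoderm that shares many plasma protein genes with the liver. Of 27 genes of its list, 11 were higher in iHepSCs and 5 lower. Trap1a, an X-linked tumour antigen gene, had the largest measured difference of the 18193 genes in this direction, reading 13.83 at P3, 13.86 at P20 and 3.87 in pHep, a difference of 9.98 ± 0.14 (adjusted p = 4.5e-06), with 4.06 to 4.24 in MEF. Rhox5, a homeobox gene of the placenta, testis and extraembryonic endoderm, read 14.09 at P3, 14.00 at P20 and 5.64 in pHep, a difference of 8.40 ± 0.13, and Mageb16, an X-linked gene outside the lists, read 12.09 at P3, 12.02 at P20 and 4.27 in pHep. Cubn, the endocytic receptor cubilin, read 10.99 at P3, 11.51 at P20 and 4.75 in pHep (6.49 ± 0.26), Fxyd3 read 13.22 at P3, 13.21 at P20 and 7.18 in pHep and Dab2, an endocytic adaptor, read 13.25 at P3, 13.10 at P20 and 10.21 in pHep. The partner of Cubn, Amn, was lower, at 5.05 at P3, 5.01 at P20 and 6.69 in pHep (-1.66 ± 0.16), and Lrp2, a further receptor of this kind, was low at 5.02 and 4.94 against 4.76. Among 24 pluripotency and germline genes 4 were higher, namely Trap1a, Rhox5, Klf4 and Utf1 (7.48 and 7.43 against 6.68), of which Utf1 lost its call with either iHepSC array left out. Nanog, at 4.00 and 3.89 against 3.87, was not called.

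Markers of other liver cells were uneven. Of 18 Kupffer cell and macrophage markers 13 were lower in iHepSCs (72.2%) and 1 higher, and 8 were lower on centring to Gapdh. Cd163, a scavenger receptor of macrophages, read 4.12 at P3, 4.12 at P20 and 11.15 in pHep, a difference of -7.04 ± 0.20, and Vsig4 read 5.37 at P3, 5.64 at P20 and 11.57 in pHep. Cd14 was the member that was higher, at 12.63 at P3, 12.07 at P20 and 10.79 in pHep, and its call was lost without iHepSC replicate 1. Chil3, a macrophage lectin outside the list and among the 15 largest gaps, read 4.31 at P3, 4.18 at P20 and 12.60 in pHep. Of 18 endothelial markers 5 were higher in iHepSCs and none lower. Among the higher ones, Vwf read 7.55 at P3, 6.96 at P20 and 4.17 in pHep. Tek, also higher, read 6.87 at P3, 7.03 at P20 and 4.32 in pHep. Of the 4 defining endothelial markers only 1 was higher and none lower. It was Cdh5, at 8.72 at P3, 8.47 at P20 and 5.36 in pHep. Kdr (7.10 and 7.01 against 6.81), Pecam1 (5.299 and 4.996 against 4.773) and Stab2 (6.17 and 6.97 against 6.05) were not called. Of 24 stellate cell and fibroblast markers 9 were lower and 5 higher, or 5 lower on centring to Gapdh. Col3a1, a fibrillar collagen, read 5.20 at P3, 4.92 at P20 and 10.87 in pHep, Pdgfrb read 3.31 at P3, 3.52 at P20 and 8.83 in pHep and Acta2 read 7.54 at P3, 7.64 at P20 and 11.10 in pHep (2 of its 3 probe sets lower), all lower in iHepSCs, whereas Col6a1 at 10.62 at P3, 10.33 at P20 and 6.11 in pHep, Sparc at 13.52 at P3, 13.49 at P20 and 11.93 in pHep and Vim at 14.20 at P3, 13.97 at P20 and 13.19 in pHep were higher. Of the 6 defining markers of these cells, 3 were lower in iHepSCs and none was higher. Besides Col3a1 and Pdgfrb they were Col1a1 (6.44 and 6.34 against 8.55), Dcn (9.74 and 9.33 against 9.53), Des (7.29 and 7.40 against 7.42) and Lrat (3.9 and 3.7 against 4.2). The mean level of the stellate cell and fibroblast list was 7.91 and 7.94 in iHepSCs, 8.70 in pHep and 11.30 to 11.89 in MEF. Blood markers were higher in 1 and lower in 1 of 15, or 4 higher without MEF replicate 1, and the lower call was present only with all arrays or without that array. Of 4 measured defining blood markers 1 was lower and none higher. They were Ptprc (4.51 and 4.26 against 7.23), Cd3e (7.0 and 7.1 against 6.8), Cd79a (5.54 and 5.47 against 5.22) and Hba-a1 (4.79 and 4.82 against 4.25).

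Epithelial junction genes moved in both directions. Of 36, 6 were higher and 5 lower in iHepSCs, or 11 and 9 without MEF replicate 1. Cldn18, above, and Cldn2, at 14.07 at P3, 14.19 at P20 and 11.96 in pHep, were higher, and Cldn3, at 7.46 at P3, 7.36 at P20 and 10.57 in pHep, and Cldn4 were lower. Gja1, the gap junction protein connexin 43, read 12.93 at P3, 12.85 at P20 and 5.11 in pHep on the probe set used, a difference of 7.79 ± 0.15 (4 of its 6 probe sets differed by more than 7 and the other 2 by 1.21 and 1.41), and MEF read 13.19 to 13.42, whereas Gjb2, above, was lower. The desmosomal cadherins were opposed too, with Dsg2 at 9.84 at P3, 9.78 at P20 and 13.22 in pHep and Dsc2 at 10.42 at P3, 10.69 at P20 and 7.86 in pHep.

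Of the remaining lists, stress genes were lower in 5 of 30 and higher in none, or 12 lower without MEF replicate 1 and 3 with either iHepSC array left out, with Dusp1, a phosphatase induced by stress, at 12.21 at P3, 11.63 at P20 and 13.73 in pHep. Inflammatory genes were lower in 7 of 26 and higher in 2, with 12 lower and 5 higher without MEF replicate 1 and 4 lower with either iHepSC array left out. Steap4, a metalloreductase, read 7.32 at P3, 6.61 at P20 and 12.88 in pHep (-5.92 ± 0.33), and Vcam1, an adhesion protein for leukocytes, read 12.22 at P3, 11.46 at P20 and 8.45 in pHep (3.39 ± 0.47). Interferon and antigen presentation genes were higher in 8 of 28 and lower in 4, or 5 higher without iHepSC replicate 1 and 7 lower without MEF replicate 1. Mx1 and Oasl2, both induced by interferon, read 8.56 at P3, 7.73 at P20 and 4.08 in pHep and 8.78 at P3, 8.05 at P20 and 5.15 in pHep. The largest difference of this list in favour of iHepSCs, 4.64, was that of H2-D1, at 12.95 at P3, 12.83 at P20 and 8.25 in pHep. Its other probe sets differed by -5.44 to 1.56, so its direction depended on the probe set. H2-Q10, a class Ib antigen secreted by the liver, read 5.29 at P3, 5.40 at P20 and 13.74 in pHep (-8.39 ± 0.18). For both genes the reservation holds that the H2 family shares much of its sequence.

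Several of the largest gaps lay outside the lists. Bex1 read 3.68 at P3, 3.63 at P20 and 14.28 in pHep, with 8.82 to 10.04 in MEF, and its difference of -10.63 ± 0.50 was the largest of all in favour of pHep. Fgl1, a fibrinogen-like hepatokine, read 5.46 at P3, 5.31 at P20 and 13.57 in pHep, and Cd302, a lectin receptor, read 5.03 at P3, 5.05 at P20 and 12.78 in pHep. On the iHepSC side, Gcnt3, which builds the branched sugars of mucins, read 12.54 at P3, 12.57 at P20 and 3.98 in pHep, a difference of 8.57 ± 0.18, and its relative Gcnt1 read 11.46 at P3, 11.56 at P20 and 3.87 in pHep. Aldh3a1, an aldehyde dehydrogenase of stomach and cornea, read 11.62 at P3, 11.45 at P20 and 3.97 in pHep, and Sptssb, a subunit of the first enzyme of sphingolipid synthesis, read 12.34 at P3, 11.49 at P20 and 4.32 in pHep. Anxa1, which read 14.42 at P3, 14.51 at P20 and 11.38 in pHep, S100a6, which read 14.63 at P3, 14.56 at P20 and 13.73 in pHep, and Cystm1, which read 14.59 at P3, 14.39 at P20 and 12.25 in pHep, were among the called genes with the highest iHepSC levels, and Fn1, fibronectin, with 12.31 at P3, 12.96 at P20 and 14.74 in pHep, was among those with the highest pHep levels. Cystm1 was called in 2 and Fn1 in 3 of the 6 leave-one-out fits.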

How the data were processed

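Each of the 7 RNA samples was hybridised to 1 Affymetrix mouse array. The authors deposited log2 expression levels per probe set, and the submitters' processing notes name RMA (background correction, quantile normalization between arrays, summary per probe set). In-house MATLAB functions served the authors for later steps, and software versions are not given in the sources used here. Depth has no meaning for arrays, and precision is limited by how many there are.

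Probe sets were named from the annotation of the array. The 64 control probe sets, 932 with several symbols and 9160 with none were left out, and each of 18193 genes was represented by 1 probe set, that of highest mean (9010 genes had more than 1). The model of limma 3.58.1 (R 4.3.3) was fitted by lmFit and eBayes to all 7 arrays (a mean for each of the 3 groups, 4 residual and 2.11 prior degrees of freedom, prior SD 0.162). P-values were adjusted by Benjamini-Hochberg over all genes. Intervals are 95% and rest on 6.11 degrees of freedom. Counts and figures were made in Python 3.11.15 with pandas 2.3.3, numpy 2.4.6, scipy 1.17.1 and matplotlib 3.10.9. Tested on simulated data for this comparison (18193 genes), the fit found 7.14% of the genes given a log2 change of 1, 70.6% of those given 2 and 98.4% of those given 4, and 5.79% of its calls were false. The simulated noise was independent on each of the 7 arrays and had the fitted variance, pHep included. These rates therefore do not cover another spread of pHep, an outlying MEF array or technical replicates, and are no error rate of the real calls.

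The programs and the 38 lists were chosen with earlier results of these data known. Named were Alb, Afp, Ttr, Hnf4a, Pou5f1 and Vim, the 15 largest differences in each direction, up to 4 members a list with the largest differences in each direction, all stomach, hepatoblast and bile duct genes, defining markers of other cells, and the 5 called genes with the highest level in each direction. Other genes were added after their values were seen, among them Apoa1, Apob, Foxa2, Cyp2e1, F11, Klkb1, Muc2, Lct, Olfm4, Vil1, Pdx1 and Sox2, as were the gastrokine promoters. Of the listed genes, 90 were not analysed here. Probe set choice, dim genes, normalization, variance prior, samples, replicate block, size floor and the methods' t-test were varied.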

Additional observations from a re-analysis of the deposited data

How the results depend on the processing

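The single pHep array could not be left out, so how far its own spread bears on any result was not tested. Leaving out 1 array at a time gave 909 to 4628 genes higher and 878 to 3144 lower in iHepSCs. In the hepatocyte program 16 to 33 were higher and 171 to 246 lower, in the immature program 12 to 50 and 15 to 26, and in the foregut program 52 to 81 and 11 to 13. The highest counts were those without MEF replicate 1. With MEF replicates 2 to 4 averaged as 1 array, 693 genes were higher and 780 lower, and 9 immature genes were higher. Centring on Gapdh gave 616 lower genes, and a floor of 2-fold left 1096 higher genes. The methods' t-test, which has 1 degree of freedom here, gave 2215 higher and 1464 lower genes before and 311 and 118 after Benjamini-Hochberg. After it, 2 hepatocyte genes were higher and 7 lower, 0 immature genes were called in either direction (16 higher and 16 lower by limma), and 3 foregut genes were higher and 1 lower. Before it, 39 foregut genes were higher.

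Replicate numbers are shared by MEF and iHepSC arrays, but same-numbered arrays did not deviate together (correlations of deviations -0.22 and -0.21). The 2 iHepSC arrays deviate from their mean by equal and opposite amounts, so these 2 values are not independent. They cannot decide whether the numbers pair the samples. With a replicate block, 189 genes were higher and 259 lower, with 3 and 92 in the hepatocyte, 4 and 5 in the immature and 30 and 2 in the foregut program.

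Among genes that were not called, some differences near 0 changed sign. With the replicate block this held for Aldh1a3 (-0.145), Dlk1 (-0.535), Lrp2 (-0.119), Pou5f1 (-0.036) and Slc4a2 (0.223). On centring to Gapdh this held for Apob (0.0159), Cd24a (0.377), Cpe (0.225), Krt18 (0.298), Mest (0.011), Serpina6 (0.316), Slc4a2 (0.378) and Ttr (0.127). With the mean of all probe sets this held for Cpe (0.0241). With a second quantile normalization this held for Lct (-0.0599) and Olfm4 (-0.0412). On centring to the array median this held for Lct (-0.03) and Olfm4 (-0.0157). On leaving out 1 array it held for Dlk1 (-0.198 to 0.379), Gpc3 (-0.0343 to 0.104), Lct (-0.0217 to 0.036), Pou5f1 (-0.0134 to 0.147) and Slc4a2 (-0.181 to 0.0168). The difference of Cblif was 0 and so had no direction, and it became -0.0679 with a second quantile normalization, -0.0371 on the array median, 0.46 on Gapdh and 0.0917 with the replicate block. Gpc3 on the array median and Olfm4 without iHepSC replicate 1 moved to values below 0 that round to 0.00. Apart from these, none of the 251 genes followed through the settings changed direction. Not followed were H2-D1 and the markers Adgre1, Csf1r, Col1a1, Dcn, Des, Lrat, Pecam1, Stab2, Ptprc, Cd3e, Cd79a and Hba-a1. For Dcn the P3 array (9.74) and the P20 array (9.33) lay on opposite sides of pHep (9.53), so its direction depends on the array kept. Probe sets, dim genes, variance prior, a second quantile normalization and the array median kept each program's count within 1.5 times. The cause of each change was not tested.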
